A study of Homo sapiens with 18 samples.

Results

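HEK293 cells whose p65 carries the S547A change were given etoposide for 4 h, and their transcripts were set against those of untreated cells of the same line. The comparison rests on 6 of the 18 arrays in the series, 3 per condition, chosen by their titles. It covers 12055 genes, those with a probe detected (detection p under 0.05) on at least 3 of the 18 arrays. HEK293 is an adherent human line derived from embryonic kidney. In every group of the series, siRNA against p65 was transfected and an HA-tagged p65 that escapes this siRNA was supplied by lentivirus. In the S547A groups this p65 carries the S547A change, and those used here had etoposide for 4 h, no treatment or, as a later time, etoposide for 8 h. The wt groups, which received wild-type HA-p65, had etoposide for 4 h or no treatment. Each group has 3 arrays, and per the series text the whole experiment was carried out 3 times. The labels give neither the dose of etoposide, the promoter of the lentivirus, nor whether a line is a clone or a pool, and the p65 protein that siRNA left behind was not measured here. The question is which transcripts the early damage response of the S547A line involves and where it differs from that of the wt line.

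The p65 protein, encoded by RELA, is the subunit of NF-kB that carries the strongest transactivation domain. In resting cells NF-kB dimers are held in the cytoplasm by inhibitors of the IkB family, and they enter the nucleus once the IKK complex marks those inhibitors for destruction. Etoposide traps topoisomerase II on cut DNA, and the resulting double-strand breaks activate the kinase ATM, which signals to cell cycle checkpoints, to p53 and, through the NEMO subunit of IKK, to NF-kB. Inhibitors such as IkB-alpha and A20 are themselves NF-kB target genes and close feedback loops. Cells with damaged DNA that are held before mitosis lower the transcripts of many mitotic genes.

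Levels are given on the log2 scale after background correction and normalization between arrays, so that a difference of 1 is a 2-fold change. A gene was called at a Benjamini-Hochberg adjusted p under 0.05 over all 12055 genes. Between 35.8% and 37.7% of probes were detected on each of the 6 arrays, and the median raw intensity per array ranged from 94.7 to 112. Arrays of the 4 h group, compared over genes that are no replicates of each other, correlated with each other at r = 0.982 to 0.984 and untreated arrays at 0.984 to 0.986, while pairs of a 4 h and an untreated array reached 0.972 to 0.977. As a check of the cell label, no fibroblast marker of 10 on the array and no endothelial marker of 10 was detected on all arrays of either condition. Blood cell markers were detected on all 4 h arrays for 1 of 9 genes and on all untreated arrays for 2, and epithelial and keratinocyte markers on all 4 h arrays for 2 of 10 and on all untreated arrays for 1. Kidney developmental markers were detected on all 4 h arrays for 2 of 8 genes and on all untreated arrays for 1. Neuronal markers, which HEK293 cells are known to express in part, were detected on all 4 h arrays for 5 of 10 genes and on all untreated arrays for 2.

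After 4 h of etoposide, 684 genes were higher in S547A cells than without treatment (5.67% of those tested) and 462 were lower (3.83%), so that 1146 genes (9.51%) were called in all. Of these, 128 (1.06%) were at least 2-fold higher and 64 (0.531%) at least 2-fold lower, while the median change over all genes was -0.00. The count of calls was 455 in a fit of the 6 compared arrays alone and 711 without the third 4 h replicate. Where arrays were scaled to a common median in place of quantile normalization, 841 genes were called and 83.9% of them were higher, against 59.7% of the 1146. The largest rises were in feedback inhibitors of NF-kB, in chemokines and cytokines and in immediate early genes, and the largest falls included a group of mitotic genes. The median log2 change was 0.72 among the genes that rose and -0.67 among those that fell. The arrays of the 2 conditions did not overlap for 3074 genes (25.5%), called or not. Of the genes that rose, 55 were not detected on any untreated array, and of those that fell, 26 were not detected on any 4 h array.

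RELA had 1 probe, detected on every array. Its level was 10.14, 10.03 and 10.30 on the 4 h arrays, against 8.82, 8.69 and 9.09 on the untreated arrays. All 4 h arrays lay above all untreated arrays, and the rise was 1.29 ± 0.15 (log2, SE, adjusted p = 2.49e-05). Whether this probe reads the supplied transcript, the endogenous one or both was not tested. The same probe rose by 1.63 in wt cells, and the responses of the lines did not differ beyond their error (difference -0.34 ± 0.21, adjusted p = 0.946). Its level was higher in the S547A line, with untreated means of 8.86 in S547A and 7.80 in wt cells. At 4 h the means were 10.16 in S547A and 9.43 in wt cells. Among the other subunits, RELB, the partner of p52 in the non-canonical pathway, rose by 1.70 and was at least 2.16-fold higher, since it was not detected on any untreated array (means of 6.39 at 4 h and 4.69 untreated, adjusted p = 6.82e-05). NFKB2, the precursor of p52, rose by 0.82 and NFKB1, the precursor of p50, by 0.44, whereas REL, the lymphoid subunit c-Rel, changed by 0.52 without being called. In all, 4 of 5 subunits rose and none fell, with a median change of 0.82.

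The feedback inhibitors of NF-kB held the gene with the largest change of all. TNFAIP3 encodes A20, an ubiquitin-editing enzyme that shuts off signalling to IKK. It read 10.48, 10.08 and 10.29 on the 4 h arrays, against 5.07, 5.10 and 5.25 on the untreated arrays. It was thus clearly measured after etoposide and not well above background before, and the fitted change was 5.15 ± 0.14 (adjusted p = 3.94e-13). For such genes a bound is given: the mean over the arrays that measured the gene is set against the mean, over the other arrays, of the lowest level among detected probes or the gene's own level, whichever is higher. By this bound TNFAIP3 was at least 32.2-fold higher. NFKBIA, which encodes IkB-alpha, stood at 12.99, 12.71 and 12.84 after 4 h, against 10.12, 9.84 and 9.82 in untreated cells. It was well measured in both conditions and rose by 2.92 ± 0.15 (adjusted p = 1.02e-09), with no overlap of arrays. NFKBIZ, a nuclear IkB protein induced by inflammatory signals, rose by 2.11 ± 0.25 (adjusted p = 4.46e-05). BCL3, another nuclear IkB protein, rose by 1.32, the deubiquitinase CYLD by 1.29 and NFKBIE, which encodes IkB-epsilon, by 1.16. Of the 10 measured inhibitors, 6 rose and none fell, with a median of 1.22, and NFKBIB, TNIP1, TNIP2 and N4BP1 lay between -0.06 and 0.14.

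The stretch just before the start of each of these genes is shown because the κB consensus, the sequence that NF-kB dimers bind, lies in it. Each line gives the 250 bases before the start from RefSeq (build GRCh38.p14), written 5′ to 3′ on the gene's strand, with every match to the consensus on either strand in capitals. TNFAIP3 lies on the plus strand (chr6:137867009-137867258), NFKBIA on the minus strand (chr14:35404750-35404999), CCL20 on the plus strand (chr2:227813592-227813841) and SELE on the minus strand (chr1:169734080-169734329).
TNFAIP3: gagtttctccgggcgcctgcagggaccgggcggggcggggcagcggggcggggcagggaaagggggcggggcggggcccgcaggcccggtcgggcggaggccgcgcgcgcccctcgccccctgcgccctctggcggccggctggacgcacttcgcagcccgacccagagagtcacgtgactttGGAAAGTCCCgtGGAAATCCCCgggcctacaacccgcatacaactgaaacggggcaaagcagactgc
NFKBIA: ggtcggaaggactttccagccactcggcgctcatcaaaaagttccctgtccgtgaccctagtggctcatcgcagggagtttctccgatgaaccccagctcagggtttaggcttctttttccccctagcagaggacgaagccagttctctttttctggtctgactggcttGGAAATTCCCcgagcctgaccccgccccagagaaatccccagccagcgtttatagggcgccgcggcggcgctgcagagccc
CCL20: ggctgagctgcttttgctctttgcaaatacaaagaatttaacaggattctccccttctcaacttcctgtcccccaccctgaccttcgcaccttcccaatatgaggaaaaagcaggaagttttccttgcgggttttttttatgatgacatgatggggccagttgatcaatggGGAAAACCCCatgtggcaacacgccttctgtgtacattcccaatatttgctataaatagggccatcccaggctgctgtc
SELE: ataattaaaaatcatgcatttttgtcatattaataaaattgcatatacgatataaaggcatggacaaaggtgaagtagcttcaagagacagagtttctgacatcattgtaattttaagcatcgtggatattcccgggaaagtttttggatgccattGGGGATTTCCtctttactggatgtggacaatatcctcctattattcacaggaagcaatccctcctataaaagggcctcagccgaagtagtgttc
TNFAIP3 had 2 matches within this stretch and the other genes 1 each. Over windows that run from 250 bases before the start to 50 after it, 8 of 14 windows among the 15 genes with the largest rise held the consensus (57.1%), against 12.8% of the 9654 windows of tested genes and 10.8% of all 27305. These 8 genes were TNFAIP3, CCL20, CXCL1, SELE, GADD45B, NFKBIA, CXCL2 and IRF1, and PI3 had no window in the table. Among the measured chemokines 7 of 8 windows held it, and among the feedback inhibitors 4 of 9. A match is a description of letters, and binding was not measured.

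The secreted inflammatory genes rose next to these inhibitors. CCL20, the ligand of the receptor CCR6 on lymphocytes and dendritic cells, read 11.91, 12.27 and 11.86 on the 4 h arrays, against 6.96, 7.41 and 7.41 on the untreated arrays. The 4 h arrays were all more than 4 log2 units above the untreated ones, and the rise was 4.76 ± 0.17 (adjusted p = 4.9e-12). CXCL8, the neutrophil attractant interleukin-8, read 11.49, 11.54 and 11.59 after 4 h, against 6.87, 7.06 and 7.33 in untreated cells. The rise was 4.45 ± 0.19 (adjusted p = 6.28e-11), with no overlap, and the other, dimmer probe gave 3.54. CXCL1, also a neutrophil attractant, read 9.46, 8.91 and 8.79 after 4 h, against 4.92, 4.97 and 4.59 in untreated cells. It was not detected on any untreated array and was at least 13.8-fold higher (means of 9.06 and 4.83, adjusted p = 5.78e-10). CXCL2 was at least 4.79-fold higher (means of 7.54 at 4 h and 4.65 untreated, adjusted p = 1.81e-08), CXCL10 rose by 1.86 and CXCL6 by 0.65. Of 14 listed chemokines 9 were measured. Of these, 6 rose, beside 5.67% of all genes, and none fell, with a median of 1.86. CXCL3, CCL5 and CXCL11 were not called at 0.67, 0.31 and 0.19. The other 5 had no kept probe. CXCL1 and CXCL2, detected on no untreated array of either line, passed the filter through etoposide arrays alone. A silent gene that etoposide did not raise would have been dropped, so the filter partly sets these figures.

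TNF, the founding cytokine of its family and both a product and an activator of NF-kB, read 9.40, 9.04 and 9.10 on the 4 h arrays, against 4.98, 4.88 and 4.84 on the untreated arrays. No untreated array detected it, and it was at least 15.0-fold higher (means of 9.18 and 4.90, adjusted p = 9.02e-13). Of 25 listed cytokines and growth factors 10 were measured. Of these, 3 rose and 1 fell, beside 5.67% and 3.83% of all genes. IL32 rose by 1.18 ± 0.19 (adjusted p = 0.000557), HBEGF, an EGF receptor ligand, rose by 0.73 (adjusted p = 0.0295), and INHBE, an inhibin subunit, fell, with a median of 0.07 over the list. The HBEGF call was lost when the fit held the 6 compared arrays alone (adjusted p = 0.157). Among TNF receptors and their adaptors, 3 of 12 rose: TNFRSF12A, the receptor of the cytokine TWEAK, by 1.81, the adaptor TRAF4 by 1.35 and TNFRSF9, the costimulatory receptor 4-1BB, by 1.06. The median of those 12 genes was 0.21, and the TNFRSF9 call was lost in the fit of the 6 compared arrays (adjusted p = 0.0795).

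The IKK complex and its upstream signalling held no called gene among 17 measured, at a median of 0.02, beside 9.51% called among all genes. Its members ranged from SHARPIN at 0.81 to TAB2 at -0.56, and ATM itself stood at 0.07, IKBKB at 0.07 and IKBKG, which encodes NEMO, at 0.43. With values that the authors had normalized, 2 of these 17 genes were called higher. Of 12 measured coactivators and corepressors that act with p65 none rose. NCOA1 fell by 0.76 and KAT2B by 0.53, calls that were both lost in the fit of the 6 compared arrays (adjusted p = 0.0636 and 0.134). The other NCOA1 probe gave 0.17, and the mean of the NCOA1 probes was not called (-0.30, adjusted p = 0.145). HDAC1, a deacetylase that can associate with p65, read 12.38, 12.22 and 12.35 after 4 h, against 12.25, 12.40 and 12.41 in untreated cells. These arrays overlapped, and the change was -0.04 ± 0.12 (adjusted p = 0.895).

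**Figure D1:**
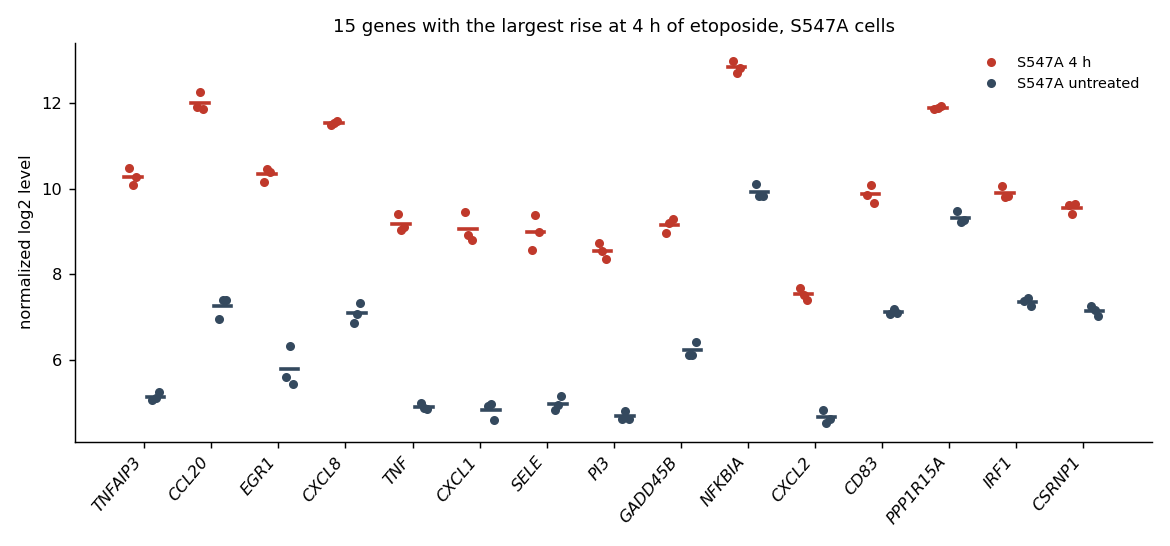
Normalized log2 levels (vertical axis) of the 15 genes with the largest rise, on each of the 3 S547A 4 h arrays (red) and 3 S547A untreated arrays (dark blue), with a bar at each mean. The genes were picked among called genes whose 4 h and untreated arrays did not overlap, so the gap between the groups was a condition. Changes run from 5.15 for TNFAIP3 to 2.41 for CSRNP1.

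Of 6 measured adhesion molecules, 2 rose and 1 fell, beside 5.67% and 3.83% of all genes. SELE encodes E-selectin, which endothelial cells display to passing leukocytes. It read 8.58, 9.40 and 8.99 on the 4 h arrays, against 4.82, 4.94 and 5.15 on the untreated arrays, none of which detected it. SELE was at least 13.1-fold higher (means of 8.99 and 4.97, adjusted p = 3.96e-10), but the other SELE probe, dimmer on average, gave 0.31. VCAM1, a ligand of leukocyte integrins, was at least 1.36-fold higher (means of 5.72 at 4 h and 4.67 untreated, adjusted p = 0.000722). Its 2 other probes gave 0.25 and -0.01, and the mean of the 3 probes was not called (adjusted p = 0.0632). ICAM1, another integrin ligand, was at 0.42 and not called. ICAM5, a neuronal adhesion molecule, was detected on 1 of 3 arrays at 4 h and on all untreated arrays. Its fitted change was -0.96 (adjusted p = 0.0189, and 0.0841 in the fit of the 6 compared arrays). Of 10 endothelial markers on the array 1 was tested, EGFL7, which was not called at -0.20.

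Further genes known as NF-kB targets rose in 8 of 19 cases, and none fell, with a median of 0.57. PI3 encodes elafin, a secreted inhibitor of elastase. It read 8.73, 8.55 and 8.36 on the 4 h arrays, against 4.63, 4.80 and 4.62 on the untreated arrays. The untreated arrays were all not well above background, so PI3 was at least 9.66-fold higher (means of 8.55 and 4.68, adjusted p = 2.32e-12). CD83, a surface protein of activated dendritic cells, rose by 2.76 ± 0.13 (adjusted p = 1.74e-10), with 3.64 from its other probe. IRF1, a transcription factor of interferon responses, rose by 2.54 ± 0.14 (adjusted p = 2.14e-09). STX11, PLAU, PTX3 and TAP1 rose by 1.65, 1.38, 0.90 and 0.70. Well-known targets that were not called include SOD2 at 0.02, CFLAR at 0.17, BCL2L1 at -0.38 and PTGS2 at 0.57. Of 20 measured interferon-stimulated genes, 2 rose and 2 fell at a median of -0.09, beside 5.67% and 3.83% of all genes, and the calls of IFI27, IFI6 and IFITM2 were each lost in the fit of the 6 compared arrays (adjusted p = 0.132, 0.159 and 0.0908).

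Immediate early genes, which cells switch on within minutes of a stimulus without new protein synthesis, made up the other large block of rises. EGR1, a zinc finger transcription factor, read 10.17, 10.47 and 10.39 on the 4 h arrays, against 5.61, 6.32 and 5.44 on the untreated arrays. It was detected on all 6 arrays with no overlap, and rose by 4.55 ± 0.23 (adjusted p = 7.8e-10). ATF3, a stress-induced repressor of the ATF family, rose by 1.87 ± 0.12 (adjusted p = 2.16e-08). KLF10, a Krüppel-like factor, also rose by 1.87, with 1.67 and -0.22 from its 2 other probes. The AP-1 subunits JUN, JUNB, FOSB, FOS and JUND rose by 1.81, 1.61, 1.50, 1.18 and 1.09, whereas FOSL1 and FOSL2 were not called at -0.26 and 0.06. In all, 10 of 20 immediate early transcription factors rose and none fell (median 0.77), and MYC, at 0.32, was not called.

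EGR1 and CXCL8 carry other motifs before their starts, shown here because neither window matches the κB consensus as searched, GGGRNNYYCC. Here R stands for A or G, Y for C or T and N for any base. Sites that depart from these letters were not counted, so a window without a match may still hold a κB site. The capitals mark the CArG box, the element bound by serum response factor, in EGR1 (plus strand, chr5:138465229-138465478). In CXCL8 (plus strand, chr4:73740319-73740568) they mark the AP-1 motif TGANTCA, where N stands for any base.
EGR1: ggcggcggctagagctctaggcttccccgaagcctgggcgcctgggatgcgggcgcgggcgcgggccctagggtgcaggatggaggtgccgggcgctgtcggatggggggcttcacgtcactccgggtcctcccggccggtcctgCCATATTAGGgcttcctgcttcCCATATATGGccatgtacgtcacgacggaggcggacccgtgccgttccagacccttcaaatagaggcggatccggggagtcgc
CXCL8: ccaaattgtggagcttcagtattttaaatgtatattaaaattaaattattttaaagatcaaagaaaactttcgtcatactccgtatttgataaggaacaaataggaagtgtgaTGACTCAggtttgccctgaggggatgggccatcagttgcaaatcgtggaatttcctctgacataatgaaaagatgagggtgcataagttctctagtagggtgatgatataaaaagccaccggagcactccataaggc
EGR1 held 2 CArG boxes in this stretch and CXCL8 1 AP-1 motif. The CArG box lies in 1.11% of the windows of tested genes and the AP-1 motif in 4.47%. Among the 15 genes with the largest rise, each of these motifs was found in 1 of 14 windows (7.14%).

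Of 18 other immediate early genes measured, 11 rose and none fell, with a median of 0.82. PPP1R15A encodes GADD34, the phosphatase subunit that restores translation after stress. It read 11.87, 11.89 and 11.94 after 4 h, against 9.47, 9.22 and 9.27 in untreated cells, and rose by 2.58 ± 0.11 (adjusted p = 6.28e-11). IER3, a regulator of cell survival, rose by 2.13 ± 0.15 (adjusted p = 6.63e-08) and ZFP36, which destabilizes cytokine mRNAs, by 1.23 ± 0.21 (adjusted p = 0.00109). CSRNP1, a nuclear protein induced by AXIN1, was among the 15 largest rises at 2.41 ± 0.16 (adjusted p = 1.84e-08). Of 9 measured MAP kinase phosphatases, which switch off JNK, p38 and ERK, 4 rose at a median of 0.25 over the list. DUSP1 rose by 2.29, DUSP5 by 1.00, DUSP8 by 0.82 and DUSP14 by 0.45.

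All 3 members of the GADD45 family, small stress proteins that bind MAP3K4 and cell cycle regulators, rose. GADD45B read 8.98, 9.20 and 9.29 on the 4 h arrays, against 6.12, 6.12 and 6.42 on the untreated arrays. The change was 2.94 ± 0.18 (adjusted p = 8.6e-09), and the arrays did not overlap. GADD45G rose by 1.72 ± 0.13 (adjusted p = 1.21e-07) and GADD45A by 1.67 ± 0.12 (adjusted p = 9.57e-08), with 1.66 from the other GADD45A probe.

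Of p53 and its targets, 3 of 23 measured genes rose at 4 h, beside 5.67% of all genes. HEK293 cells carry adenoviral E1 genes, whose E1B product is known to bind p53. The genes that rose were GADD45A, CDKN1A and PMAIP1, none fell, and the median was 0.17. CDKN1A, which encodes the CDK inhibitor p21, read 10.08, 10.06 and 9.97 after 4 h, against 8.85, 9.07 and 9.32 in untreated cells. The arrays did not overlap, and the rise was 0.96 ± 0.13 (adjusted p = 0.000209). MDM2, the ubiquitin ligase of p53, read 5.77, 4.97 and 4.96 after 4 h, against 4.69, 4.62 and 5.12 in untreated cells. It was detected on 1 of these 6 arrays and was not called (adjusted p = 0.287). PMAIP1, which encodes the BH3 protein NOXA, was just inside the threshold at 0.44 (adjusted p = 0.0466, and 0.206 in the fit of the 6 compared arrays). In the BCL2 family 2 of 15 genes rose, MCL1 by 0.89, with 0.31 from its other probe, and PMAIP1. BAX, BBC3 and BCL2L11 were not called at -0.32, 0.21 and -0.01.

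The targets of the drug are the type II topoisomerases, and tyrosyl-DNA phosphodiesterases clear trapped topoisomerase from DNA. No topoisomerase or tyrosyl-DNA phosphodiesterase was called among 8, beside 9.51% called among all genes. TOP2A, the isoform of dividing cells, read 10.94, 11.43 and 11.03 after 4 h, against 11.38, 11.59 and 11.68 in untreated cells. The arrays overlapped and TOP2A was not called at -0.41 ± 0.15 (adjusted p = 0.0939), and TOP2B was at 0.03 ± 0.15 (adjusted p = 0.941). With the values the authors had normalized, 1 gene of this list was called higher and 1 lower. Among genes of double-strand break repair 2 of 20 rose, beside 5.67% of all genes. They were EXO1, an exonuclease of end resection, at 0.86 ± 0.10 (adjusted p = 4.47e-05) and H2AX at 0.60 (adjusted p = 0.0306, and 0.0823 in the fit of the 6 compared arrays). Of 15 damage checkpoint genes CDC25A, RAD9A and ATRIP rose by 0.85, 0.76 and 0.73. In the fit of the 6 compared arrays 1 of these 3 calls remained.

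Of 40 measured genes that act at the G1/S step or in DNA replication, 8 rose and none fell, at a median of 0.15. Over all genes, 5.67% rose and 3.83% fell. CDC6, a loader of the replicative helicase, rose by 0.90 ± 0.18 (adjusted p = 0.00336) and cyclin E1 (CCNE1) by 0.56. E2F2, an activator of S-phase genes, rose by 0.89 ± 0.14 (adjusted p = 0.000668), and the repressor E2F7 rose by 0.73. E2F8, also a repressor, was not detected on any untreated array and was at least 1.27-fold higher (means of 5.62 at 4 h and 4.84 untreated, adjusted p = 0.0136). MCM10, ORC1 and TK1 rose by 0.56, 0.54 and 0.47, while PCNA, RRM2 and the other measured MCM genes were not called. This count was 2 in the fit of the 6 compared arrays and 5 without the second untreated replicate.

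Many genes of mitosis fell, beside 3.83% lower and 5.67% higher among all genes. Of 27 kinesins and spindle genes 13 fell and none rose, with a median of -0.57. Of 14 mitotic cyclins and cyclosome genes 5 fell and 1 rose (median -0.27), and of 13 mitotic kinases 4 fell and 1 rose (median -0.30). In a bulk sample, fewer cells of a cell cycle phase and less of a transcript per cell cannot be told apart. Where arrays were instead scaled to a common median, 7 spindle genes and 2 mitotic kinases were called lower, and in the fit of the 6 compared arrays 7 spindle genes and 3 cyclin and cyclosome genes.

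CCNB1, which encodes cyclin B1, the partner of CDK1 at the entry into mitosis, read 7.67, 7.86 and 7.63 on the 4 h arrays, against 9.65, 9.40 and 9.44 on the untreated arrays. It fell by 1.78 on the log2 scale (SE 0.12, adjusted p = 2.46e-08), with no overlap. PLK1, a kinase of mitotic entry and spindle assembly, read 6.98, 6.91 and 6.23 after 4 h, against 8.29, 8.62 and 8.00 in untreated cells. Its spread was wider, and it fell by 1.59 (SE 0.25, adjusted p = 0.000605). AURKA, which encodes Aurora A, read 8.85, 8.85 and 8.69 after 4 h, against 10.12, 10.44 and 10.32 in untreated cells. It fell by 1.50 (SE 0.11, adjusted p = 1.21e-07), with -1.65 from its other probe. BUB1 fell by 0.67, a call that was lost with scaling to a common median (adjusted p = 0.085). UBE2C and CDC20, which act with the anaphase-promoting complex, fell by 1.08 and 0.82. The kinesin KIF20A fell by 1.36, the hyaluronan-mediated motility receptor HMMR by 1.34, and CDCA3 by 1.26. The microtubule-binding PSRC1 fell by 1.52 on the log2 scale. In the opposite direction, MASTL, the Greatwall kinase, rose by 0.69 ± 0.11 (adjusted p = 0.000767) and FBXO5, an inhibitor of the anaphase-promoting complex, by 0.64 (adjusted p = 0.0287, and 0.14 in the fit of the 6 compared arrays). CDK1, CCNA2, CCNB2 and AURKB were not called, at -0.21, -0.26, -0.17 and -0.30.

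The deepest fall of all was that of CENPA, the histone H3 variant that marks centromeres. It read 6.08, 6.26 and 6.25 on the 4 h arrays, against 8.52, 8.57 and 8.41 on the untreated arrays. All 4 h arrays lay below all untreated arrays. CENPA fell by 2.30 on the log2 scale (SE 0.14, adjusted p = 1.02e-08) and its other probe gave -1.70. CENPE, a kinetochore motor, fell by 1.19 and CENPF by 0.65, a call that was lost with scaling to a common median (adjusted p = 0.111). Of 19 measured centromere proteins, 3 fell and 2 rose at a median of 0.05, beside 3.83% lower and 5.67% higher among all genes. The rises were CPAP by 0.62 and CENPO by 0.57 (adjusted p = 0.00874 and 0.0455). Both calls were lost in the fit of the 6 compared arrays (adjusted p = 0.0807 and 0.166). CENPB, CENPC and the CENPA chaperone HJURP were not called at 0.05, -0.05 and -0.06. Of 21 listed histone genes 12 were measured, and 1 of these was called (8.33%), beside 9.51% of all genes. It was H1-10, at -0.37 (adjusted p = 0.0483), a call that was lost with scaling to a common median (adjusted p = 0.555).

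The CCAAT motif, bound by the factor NF-Y, is shown in the stretches before the 3 mitotic genes CENPA, CCNB1 and PLK1, because it recurs among the genes with the largest fall. The capitals mark CCAAT on either strand, which reads ATTGG where the match is on the opposite strand. All 3 genes lie on the plus strand, at chr2:26785806-26786055, chr5:69166900-69167149 and chr16:23678639-23678888.
CENPA: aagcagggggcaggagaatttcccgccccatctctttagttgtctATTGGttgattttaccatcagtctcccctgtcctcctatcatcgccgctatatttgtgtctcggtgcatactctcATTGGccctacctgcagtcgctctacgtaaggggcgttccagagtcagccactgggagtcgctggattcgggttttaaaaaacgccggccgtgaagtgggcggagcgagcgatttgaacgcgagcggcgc
CCNB1: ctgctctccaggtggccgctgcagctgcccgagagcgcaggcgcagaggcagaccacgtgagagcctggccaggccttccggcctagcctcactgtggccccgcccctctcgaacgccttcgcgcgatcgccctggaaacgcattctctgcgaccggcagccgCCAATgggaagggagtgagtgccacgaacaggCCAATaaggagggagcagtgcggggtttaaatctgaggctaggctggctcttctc
PLK1: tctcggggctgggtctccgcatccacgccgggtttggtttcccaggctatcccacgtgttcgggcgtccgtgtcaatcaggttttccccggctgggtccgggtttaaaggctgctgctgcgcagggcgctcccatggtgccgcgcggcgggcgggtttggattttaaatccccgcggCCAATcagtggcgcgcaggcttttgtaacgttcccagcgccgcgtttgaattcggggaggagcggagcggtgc
CENPA and CCNB1 each held 2 matches and PLK1 held 1. CCAAT lay in 10 of 11 windows among the 15 genes with the largest fall (90.9%), against 37.5% of the windows of tested genes and 28.6% among the 15 genes with the largest rise. The 10 genes were CENPA, CCNB1, JARID2, HES5, DDIT4, PLK1, PSRC1, PCK2, KIF20A and HMMR, so that they include genes with no part in mitosis. TTTGAA, the element called CHR of cell cycle genes, lay in 4 of these 11 windows (36.4%), against 10.1% of the windows of tested genes. EXT1, INHBE, AURKA and FAM72B had no window in the table.

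**Figure D2:**
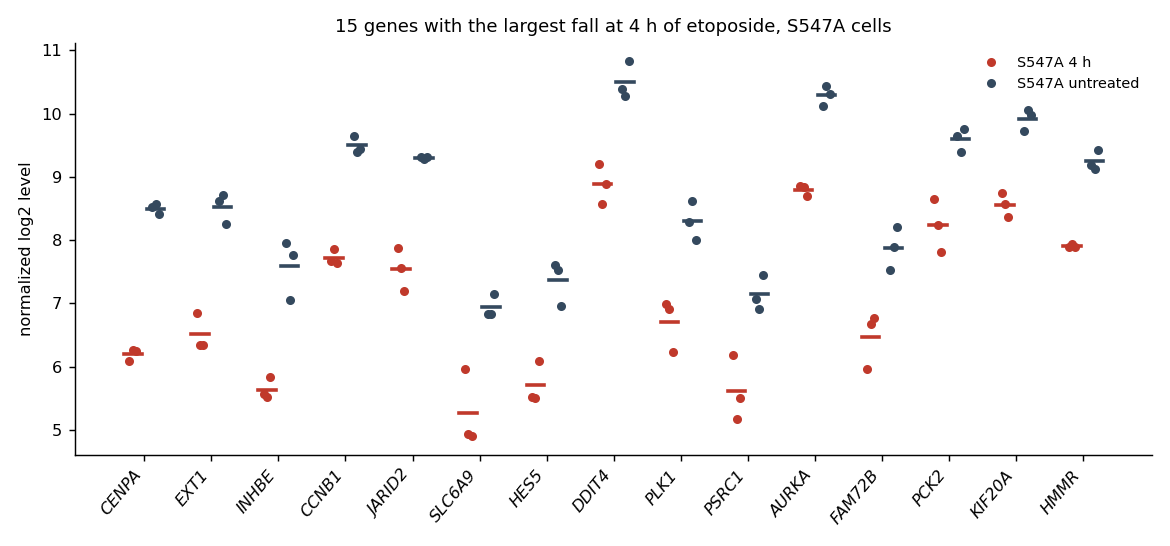
Normalized log2 levels (vertical axis) of the 15 genes with the largest fall, on each of the 3 S547A 4 h arrays (red) and 3 S547A untreated arrays (dark blue), with a bar at each mean. The genes were picked among called genes whose 4 h and untreated arrays did not overlap, so the gap between the groups was a condition. Changes run from -2.30 for CENPA to -1.34 for HMMR.

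Other large falls were outside mitosis. EXT1, which polymerizes heparan sulfate, read 6.85, 6.34 and 6.35 on the 4 h arrays, against 8.62, 8.71 and 8.26 on the untreated arrays. It fell by 2.02 on the log2 scale (SE 0.24, adjusted p = 3.72e-05), with no overlap. JARID2, a subunit of the repressive complex PRC2, read 7.88, 7.56 and 7.20 after 4 h, against 9.32, 9.28 and 9.31 in untreated cells. The untreated arrays were close together and the 4 h arrays were not, and JARID2 fell by 1.76 (SE 0.15, adjusted p = 6.6e-07). SLC6A9, a glycine transporter, was detected on 1 of 3 arrays at 4 h and on all untreated arrays, and its fitted change was -1.67 (adjusted p = 0.000252). FAM72B fell by 1.41 (adjusted p = 0.00113), but it has near-identical copies in the genome, whose transcripts the probe may share, and its other probe gave -0.52.

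Genes of the integrated stress response fell in 6 of 21 cases and rose in 2 (median -0.25), beside 3.83% and 5.67% of all genes. This response is known to raise ATF4 and its targets when amino acids are short or proteins misfold. DDIT4, an inhibitor of mTORC1, read 9.21, 8.57 and 8.89 on the 4 h arrays, against 10.38, 10.29 and 10.83 on the untreated arrays. It fell by 1.61 (SE 0.17, adjusted p = 8.53e-06), with no overlap. STC2, a secreted glycoprotein, fell by 1.20, CTH, an enzyme of cysteine synthesis, by 1.20, PSAT1, an enzyme of serine synthesis, by 0.94, ASNS, asparagine synthetase, by 0.68 and ATF4 itself by 0.49. INHBE, named above, and PCK2, mitochondrial PEP carboxykinase, were also among the 15 largest falls, at -1.96 ± 0.31 and -1.36 ± 0.21. PCK2 had 2 other probes, which gave -0.58 and -0.08. The list's rises were PPP1R15A, described with the immediate early genes, and ATF5 (0.59, adjusted p = 0.016, and 0.0948 in the fit of the 6 compared arrays). The chaperone HSPA5 and DDIT3, the factor CHOP, were not called at 0.11 and 0.12. Among heat shock proteins 3 of 17 rose, beside 5.67% of all genes, at a median of 0.25. They were HSPB8 at 1.17, HSPA8 at 0.59 and HSPA1A, which shares nearly all its sequence with HSPA1B, at 0.51. Their count was 1 in the fit of the 6 compared arrays and 5 with the authors' values.

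Some genes of developmental signalling fell. In the Notch pathway 4 of 19 genes fell and none rose, at a median of -0.11, beside 3.83% and 5.67% of all genes. HES5, a repressor that Notch switches on, read 5.52, 5.51 and 6.09 on the 4 h arrays, against 7.60, 7.53 and 6.96 on the untreated arrays. It fell by 1.66 (SE 0.22, adjusted p = 0.000116), with no overlap, and the Notch ligand DLL1 fell by 1.08 (SE 0.11, adjusted p = 7.86e-06). RBPJ, the DNA-binding partner of Notch, fell by 0.71 and HEY1 by 0.61, while HES1 was not called at 0.25. RBPJ was not called in the fit of the 6 compared arrays (adjusted p = 0.055). ID2, an inhibitor of basic helix-loop-helix factors, fell by 0.97 (adjusted p = 6.19e-05), with -1.20 from its other probe. ID1, detected on no 4 h array, was at least 1.68-fold lower (means of 4.85 at 4 h and 6.00 untreated, adjusted p = 0.0165). TGIF1 fell by 0.78 (adjusted p = 0.0167, and 0.065 in the fit of the 6 compared arrays). Of 16 ID and BMP/SMAD genes 4 fell and 1 rose (BAMBI, a decoy receptor, at 0.86), beside 3.83% and 5.67% of all genes. But 1 fell without the first 4 h replicate and 2 without the third 4 h, the first untreated or the third untreated replicate. Of 31 listed HOX genes 18 were measured, and 4 of these fell, beside 3.83% of all genes. HOXB8 stood at -0.86 and HOXC4 at -0.73. HOXA2, detected on no 4 h array, was at least 1.24-fold lower (adjusted p = 0.0415, and 0.0625 in the fit of the 6 compared arrays). The count of HOX genes that fell was 2 where arrays were scaled to a common median or where any 1 of 4 arrays was left out (the second or the third replicate of either condition).

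Of the splicing regulators, the CLK kinases, which phosphorylate SR proteins, rose with some of their substrates. CLK1 rose by 1.50 ± 0.29 (adjusted p = 0.00289), while its other probe gave 0.24. CLK4 was at least 2.19-fold higher (means of 6.41 at 4 h and 4.97 untreated, adjusted p = 0.000943), and CLK3 rose by 0.81, with 0.32 from its other probe. In all 6 of 17 genes rose, beside 5.67% of all genes, and none fell, with SRSF6, SRSF4 and SRSF5 at 0.56, 0.46 and 0.41 and a median of 0.31. The count was 2 in the fit of the 6 compared arrays and 3 without the third 4 h or the first untreated replicate. In the MYC network 1 of 10 genes was called, beside 9.51% of all genes. It was MXD1, a MAX partner that opposes MYC, which rose by 1.21 ± 0.18 (adjusted p = 0.000314). Among 6 genes of the metallothionein list 1 was called, beside the same 9.51%. MTF1, the transcription factor of metallothioneins, rose by 0.61, and no metallothionein was called. The MTF1 call was lost with the authors' values (adjusted p = 0.0927) and in the fit of the 6 compared arrays (adjusted p = 0.102).

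Beside 9.51% called among all genes, none was called among 22 cytoplasmic ribosomal proteins (median 0.02), 24 subunits of oxidative phosphorylation (-0.03), 16 genes of cholesterol synthesis (-0.03) and 12 housekeeping genes (-0.04). The ribosomal proteins ranged from -0.25 to 0.18. With the authors' values 1 cholesterol gene was called lower. Among the markers of other cell types, TUBB3 of the neuronal list rose by 1.10 and INA by 0.85 (adjusted p = 0.0578 for INA in the fit of the 6 compared arrays). EYA1 of the kidney list fell by 1.07 and KRT18 fell by 0.82 (adjusted p = 0.043, and 0.105 in the fit of the 6 compared arrays). The other KRT18 probe gave -0.12. The KRT18 call was also lost with the mean of its probes (adjusted p = 0.0706) and with scaling to a common median (adjusted p = 0.148). The mean level of the measured neuronal markers per array was 7.63 to 7.66 at 4 h and 7.25 to 7.47 in untreated cells. The part of these markers in the other results was not tested.

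**Figure D3:**
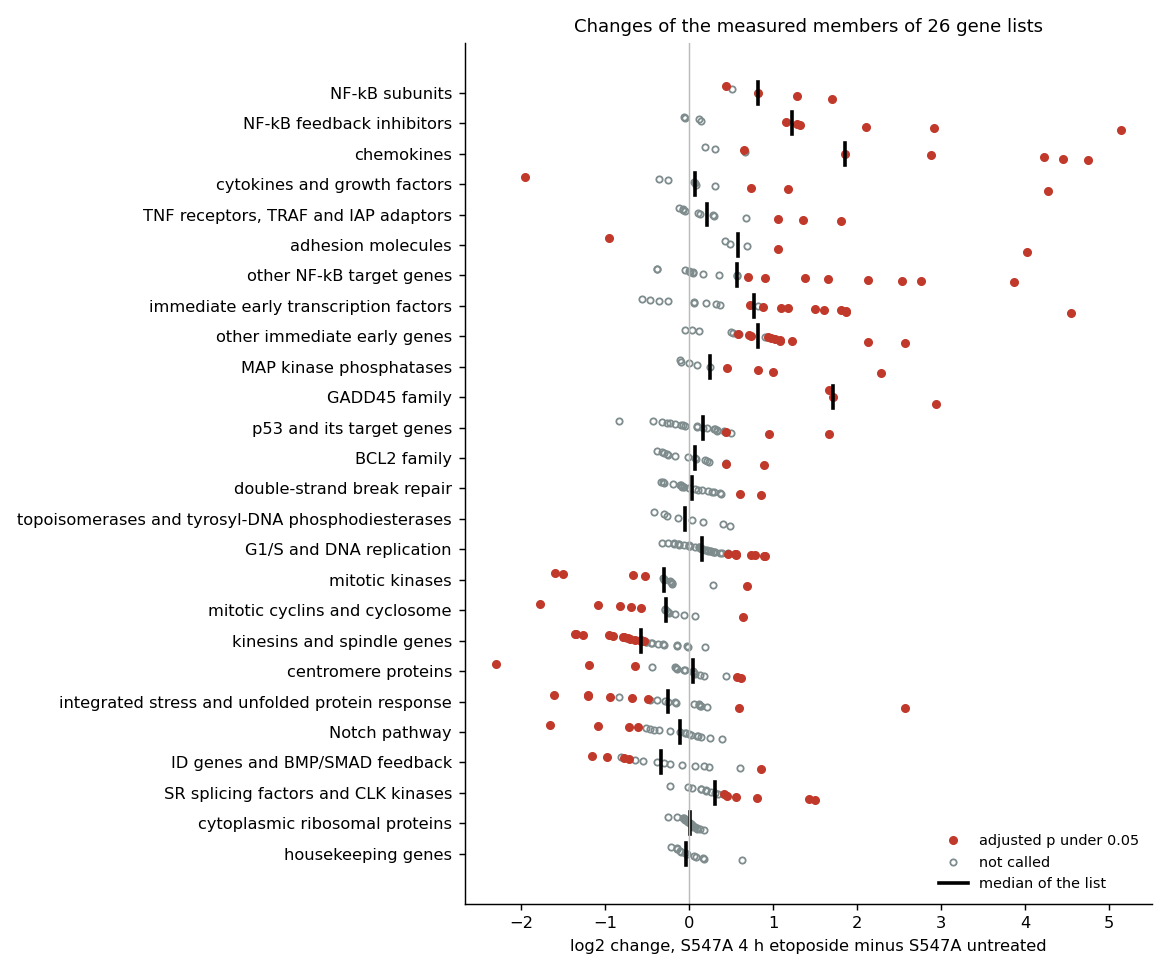
Log2 change between S547A 4 h and S547A untreated (horizontal axis) of each measured member of 26 gene lists (rows), with called members filled, uncalled members open and a bar at the list's median. The NF-kB, chemokine, immediate early and GADD45 lists extend to the right, up to 5.15, the mitotic lists to the left, down to -2.30, and ribosomal and housekeeping genes lie near 0.

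The wt line gives the nearest comparison, and it shares no array with the S547A line. Its 4 h response held 753 genes that rose (6.25%) and 503 that fell (4.17%), which makes 10.4% in all. Of the genes that rose, 453 were called in both lines, which is 66.2% of the S547A calls and 60.2% of the wt calls. Of those that fell, 248 were shared, 53.7% of the S547A calls and 49.3% of the wt calls. Both comparisons came from the same fit, in which each gene has 1 estimate of error for both lines. The calls of the lines are therefore not independent. Across genes, which are not independent, the changes of the lines correlated at r = 0.67. CENPA changed by -2.30 in S547A and -2.20 in wt cells, NFKBIA by 2.92 and 2.83, and GADD45A by 1.67 and 1.67. TAC1, a tachykinin precursor, was the 1 gene called in opposite directions, at 0.49 in S547A cells and -0.48 in wt cells. It was detected on 1 of 3 S547A untreated arrays and 1 of 3 wt 4 h arrays, and the fitted difference was not called (0.98, adjusted p = 0.241).

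A test of the difference between the responses, S547A minus wt, called 2 genes of 12055 (0.0166%), 1 higher (0.00830%) and 1 lower (0.00830%), while 674 had an unadjusted p under 0.05. PI3, the elafin gene, was the higher one. In wt cells it read 7.16, 6.95 and 6.86 after 4 h and 4.55, 4.47 and 4.41 untreated, so that every S547A 4 h array was more than 1 log2 unit above every wt 4 h array. The 4 h means were 8.55 in S547A cells and 6.99 in wt cells, and PI3 was detected on all of these arrays. No untreated array of either line detected it, so the sizes of both changes and of their difference are not exactly known. The fitted difference was 1.35 (adjusted p = 0.00648). In the fit of the 4 compared groups alone the adjusted p was 0.0527. PDLIM5, a PDZ and LIM domain protein of the cytoskeleton, was the other. In S547A cells it read 4.74, 5.00 and 4.96 after 4 h and 6.17, 5.94 and 6.29 untreated, and in wt cells 5.38, 5.59 and 5.68 after 4 h and 5.25, 4.97 and 5.25 untreated. No S547A 4 h array detected it, so that it was at least 1.84-fold lower there (adjusted p = 3.27e-05), and 1 of 3 wt untreated arrays did. The fitted difference of the responses, -1.63 (adjusted p = 0.00516), thus rests on groups at or near background and its size is not exactly known. Its 2 other probes differed by -0.50 and 0.03 between the lines, and the mean of the 3 probes was not called (-0.70, adjusted p = 0.736).

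For other NF-kB targets no difference of the responses was called. RELA itself read higher in S547A than in wt cells in both conditions, as given above, and its part in the differences between the lines was not tested. SELE had 4 h means of 8.99 in S547A cells and 7.29 in wt cells, and CXCL2 had 7.54 in S547A cells and 6.21 in wt cells. Neither gene was detected on any untreated array of either line, and TNFAIP3 was detected on 1 of the 6, so that these responses are known only as bounds. The fitted differences were 1.56 for SELE (adjusted p = 0.0896), 1.54 for CXCL2 (adjusted p = 0.0798), 1.04 for TNFAIP3 (adjusted p = 0.179) and 0.97 for VCAM1 (adjusted p = 0.581). With the authors' values the fitted differences of SELE, CXCL2 and TNFAIP3 were each called, at 1.24, 0.90 and 0.98. Levels of VCAM1 were not well above background on any wt array at 4 h or without treatment. The other genes with the smallest p on this side were ARSB, TAC1, SPIN3, MED11 and TENM1, at fitted differences from 0.89 to 1.24, none called, and TENM1 was detected on no S547A array of either condition. On the other side they were LOC101929633, GGA3, ELMO3, SMPD4, CIAO3, CDNF, ARHGAP42, DFFB and CHRNB1, at fitted differences from -1.32 to -0.72, none called, and LOC101929633, CDNF and ARHGAP42 were detected on no S547A 4 h array. Genes below background included, chemokines as a list had a median fitted difference of 0.36, feedback inhibitors 0.11 and spindle genes 0.01, and over all genes it was -0.00.

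**Figure D4:**
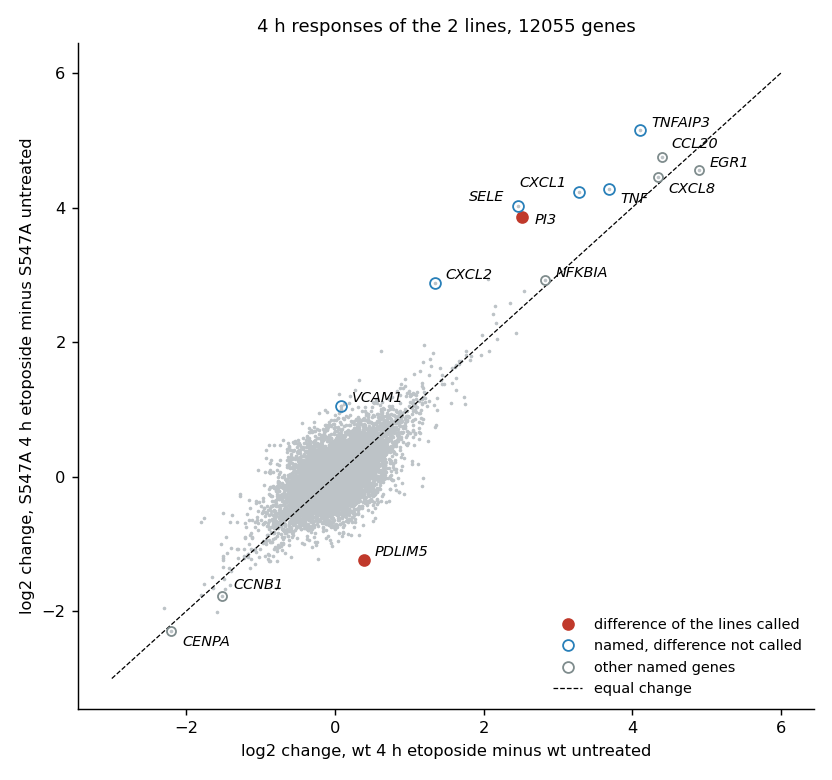
Fitted log2 change at 4 h in S547A cells (vertical axis) against that in wt cells (horizontal axis) for 12055 genes, with a dashed line where the changes are equal. PI3 and PDLIM5, whose difference was called, are filled red, and SELE, CXCL2, TNFAIP3, CXCL1, TNF and VCAM1 lie above the line without a called difference.

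Between 4 h and 8 h of etoposide, 998 genes rose in S547A cells (8.28%) and 859 fell (7.13%), 1857 in all (15.4%). This comparison shares its 4 h arrays with the one above, so that values are given side by side and no overlap was counted. VCAM1 read 4.45, 4.52 and 5.04 untreated, 5.60, 6.06 and 5.50 at 4 h, and 8.06, 8.20 and 8.17 at 8 h. The groups did not overlap, and its change between 4 h and 8 h was 2.42 ± 0.17 (adjusted p = 5.7e-07). SELE, at 10.66, 11.18 and 10.89 after 8 h, rose by a further 1.92, TNFRSF9 by 1.85, CLK4 by 1.56 and IL32 by 1.55. CENPA read 7.94, 7.79 and 8.05 at 8 h, which is 1.73 ± 0.14 above its 4 h level (adjusted p = 2.61e-06), and every 8 h array lay below every untreated array.

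EGR1 read 8.24, 8.69 and 8.62 at 8 h, below every 4 h array and above every untreated array. Its change between 4 h and 8 h was -1.83 ± 0.23 (adjusted p = 0.000129). IER3 changed by -1.37 and GADD45B by -1.03 over the same interval. HOXB8, ID2 and DLL1, which were lower at 4 h than without treatment, fell further at 8 h, with changes of -1.62, -1.43 and -1.21. TNFAIP3 and NFKBIA, by contrast, were not called between 4 h and 8 h, at 0.32 ± 0.14 and 0.17 ± 0.15. Of the immediate early transcription factors 7 of 20 were lower and 1 was higher at 8 h than at 4 h (median -0.33). Of the spindle genes 17 of 27 were higher and none lower (median 0.48), and of the mitotic kinases 7 of 13 were higher and none lower (median 0.51). Over all genes, 8.28% were higher and 7.13% lower at 8 h than at 4 h. With scaling to a common median, 1043 genes were called in this comparison, against 1857.

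**Figure D5:**
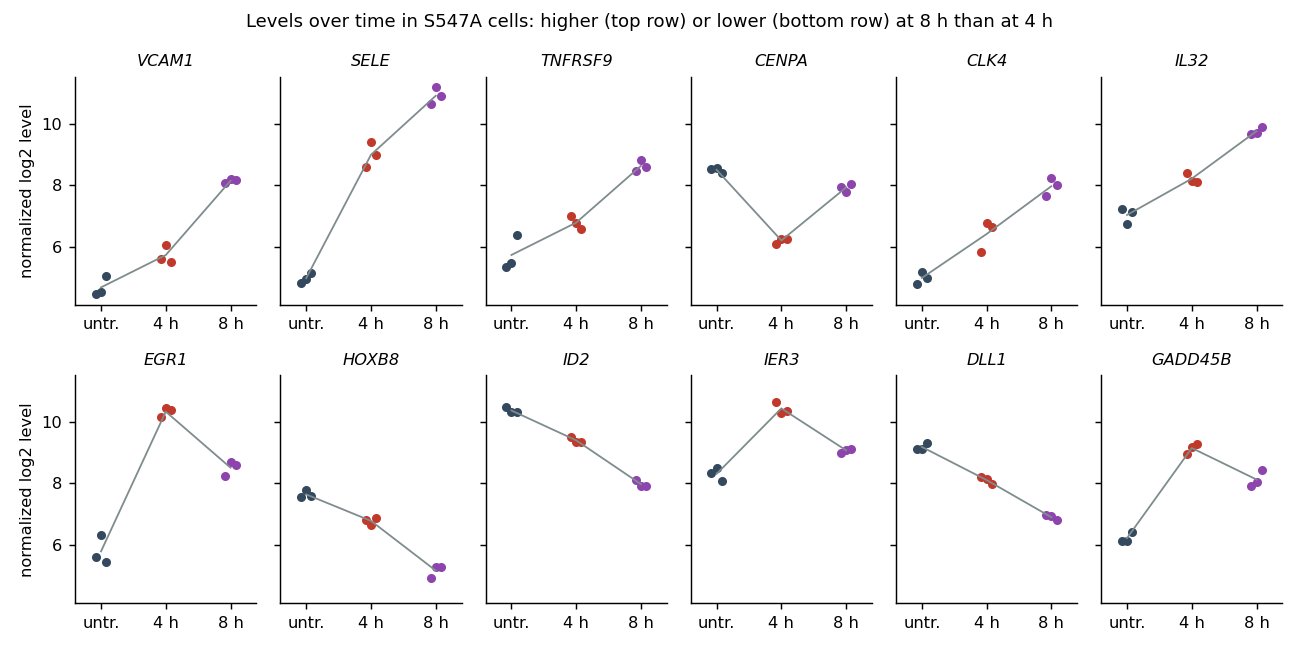
Normalized log2 levels (vertical axis) of 12 genes on each of the 3 S547A arrays without treatment, at 4 h and at 8 h, with a line through the means. VCAM1, SELE, TNFRSF9, CENPA, CLK4 and IL32 (top row) are higher at 8 h than at 4 h, by 1.55 to 2.42, and EGR1, HOXB8, ID2, IER3, DLL1 and GADD45B (bottom row) are lower.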

How the data were processed

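RNA of 18 HEK293 cultures, 6 groups of 3, was hybridized to Illumina bead arrays. Per the file headers, the deposited table gives a raw intensity and a detection p-value for each of 47231 probes, and it was not normalized between arrays. The submitters' processing notes name GenomeStudio, with no version. A further deposited table holds intensities of 47226 probes that the authors had normalized between arrays, on a linear scale with equal minima and maxima, and it served as an alternative.

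Intensities were corrected for background and quantile normalized with neqc of limma 3.58.1 (R 4.3.3, with the package data.table, version 1.17.8), using the detection p-values and an offset of 16, and taken to log2. Probes detected at p under 0.05 on at least 3 of the 18 arrays were kept (22161). Of all probes, 30112 had 1 gene symbol in the platform annotation, 8 had several and 17111 had none. Symbols were updated through the gene ID in RefSeq GRCh38.p14, which held 30073 of them. Kept probes with 1 symbol (16005) covered 12055 genes, and the brightest was used for the 3140 genes with several.

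A limma model of group means was fitted to all 18 arrays (12 residual degrees of freedom), with two-sided moderated tests and Benjamini-Hochberg adjustment over 12055 genes. The number of arrays limits the precision. The method was tested on simulated data. The 43 gene lists (748 symbols, 696 on the array), the members and the tests were chosen with earlier results of these data known. Lists are described by counts and medians, without a test. Listed members with no kept probe are left out of these figures. A gene silent without etoposide could pass the filter through its etoposide arrays alone, so the filter can favour members that rose.

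Named genes are RELA, the 15 called genes per direction with the largest change and no overlap of arrays, the 3 largest calls of each list in each direction, and a set of NF-kB, p53, topoisomerase and mitotic genes. For the difference of the lines they are the 10 genes per direction with the smallest p, and for 8 h against 4 h the 6 called named genes per direction with the largest change. Other list members given with values were chosen after these were seen.

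Alternatives were the authors' values, scaling to a common median, 3 other filters on dim probes, an offset of 50, the mean of a gene's probes, a fit of the compared groups alone, the replicate number as a block, and leaving out each array. Same-numbered 4 h and untreated arrays deviated together with correlations of 0.203, 0.0817 and 0.110, all positive. The labels do not say whether a number marks a shared run. The main fit did not take the numbers as pairs, and counts with the number as a block are given below. No slide or scan date was given in the sources used here, so batches could not be examined.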

Additional observations from a re-analysis of the deposited data

Results flagged for a closer look

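For 2 genes the 4 h response differed between the lines by a test of the difference itself (limma, adjusted over 12055 genes). The fitted log2 response of PI3 in S547A cells minus that in wt cells was 1.35 (adjusted p = 0.00648), with no untreated array of either line above detection. That of PDLIM5 was -1.63 (adjusted p = 0.00516), with no S547A 4 h array and 1 of 3 wt untreated arrays above detection, and its other probes gave -0.50 and 0.03. The sizes of both differences are therefore not exactly known. Groups of 3 arrays are too small for a test of single outlying arrays, and none was made.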

How the results depend on the processing

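No named gene that was called turned its direction under these alternatives, and 69 of the 101 called genes named for the 4 h comparison kept their call under each of them. For the 4 h comparison, the fit of the compared groups alone called 455 genes (285 higher and 170 lower), and leaving out 1 array gave 711 to 1028 (444 to 622 higher, 267 to 406 lower). At least 2-fold changes numbered 59 with the authors' values, 86 with an offset of 50 and 196 to 217 with 1 array left out, against 192. Scaling to a common median gave 135 lower calls and an all-gene median of 0.10, and there the medians of ribosomal (-0.09), housekeeping (0.01), cholesterol (0.11), topoisomerase (0.09), interferon-stimulated (0.04), coactivator (0.02), MYC network (0.02) and epithelial marker genes (0.12) changed sign. The difference of the lines was called for 4 genes with the authors' values, 4 with a common median, 5 with an offset of 50, 1 with the mean of probes, 1 in the compared groups alone and 2 to 3 with 1 array left out. For 8 h against 4 h the count was 1043 with a common median, 672 in the compared groups alone and 1311 to 1697 with 1 array left out. For wt cells at 4 h it was 811 with a common median and 849 to 969 with 1 array left out. With the replicate number as a block, 1244 genes were called at 4 h (727 higher, 517 lower, 191 at least 2-fold), 3 for the difference of the lines, 2122 for 8 h against 4 h and 1368 in wt cells, while 4 named 4 h calls missed the threshold: PMAIP1 (adjusted p = 0.0558), IFI27 (0.0510), CENPO (0.0586) and HOXA2 (0.0536). Lists with 1 to 4 calls often lost some with 1 array left out. Genes not well above background in a group have only a bound there.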
